A study of Mus musculus with 18 samples.

Results

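Gene expression was compared between RBPJ-depleted cells carrying an empty vector and cells carrying a scramble hairpin, both of the mouse T cell hybridoma E2-10HA (a hybridoma is a fusion of a lymphocyte with a tumour cell), which the labels describe as mature T cells. The comparison takes 7 of the 18 libraries of the series, chosen by their labels: 4 empty vector libraries from the rescue experiment and 3 scramble libraries from the knockdown experiment. The empty vector cells had been depleted of RBPJ, carried pMY-Bio IRES Blasticidin and were selected with blasticidin. The scramble cells carried pLKO.1-shRNA-scramble Puro and were selected with puromycin, and their labels mention no RBPJ depletion. For reference, 4 libraries came from RBPJ-depleted cells given Flag-tagged mouse RBPJ WT and 4 from the same cells given the F261A/A284V form, both in the blasticidin vector. A further 3 were labelled L3MBTL3 shRNA and carried 1 hairpin in the puromycin vector. The sources used here do not say how RBPJ was depleted, or whether in 1 clone. RBPJ depletion, vector, selection and experiment changed together between the empty vector and scramble libraries, so their parts in any difference cannot be told apart.

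RBPJ is the DNA-binding factor of the Notch pathway. A Notch receptor that meets its ligand is cut by proteases, and its freed intracellular part enters the nucleus, binds RBPJ and, with a Mastermind coactivator, switches target genes on. Without that part, RBPJ can hold the same genes down through corepressors such as SPEN, the NCOR proteins and L3MBTL3. In T cells the pathway is known for steering lineage choice in the thymus and effector functions later on.

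Each library was scaled to the same sum over the 24391 shared genes, and levels are given as CPM, that is, recovered reads per 1000000 in the library. Levels are not corrected for gene length and are compared within a gene only. A gene was tested when it reached 2 CPM in at least 3 of the 7 libraries, and counted when every one of the 12 pairs of an empty vector and a scramble library differed by at least 4-fold in 1 direction on the log2(CPM + 0.5) scale. No p-value is attached to these counts, because the authors normalized the tables separately. Recovered reads per library ranged from 3622834 to 7625758 with empty vector and from 4882485 to 6129134 with scramble. The counts of empty vector replicates 1 and 2 agreed within sampling noise (0.850 by chi-square over its degrees of freedom) and the pair was counted as 1 sample, so means ± SD are over 3 samples in each group. They stood apart from empty vector replicates 3 and 4 (12.6 to 15.4 by the same measure, called the divide from here on). Replicates 3 and 4 were close to each other (1.06) but were kept as 2 samples. Empty vector means therefore weigh that side of the divide more, and the 3 samples lie on only 2 sides of it. Scramble replicate 3 stood apart from scramble replicates 1 and 2 (6.54 and 6.71). T cell genes were present in every library: Cd3e, a subunit of the T cell receptor complex, lay between 87.2 and 104 CPM with empty vector and between 115 and 119 with scramble, and Thy1 between 138 and 195 and between 149 and 155.

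The targeted gene was examined first. Rbpj stood at 63.5, 62.6, 47.1 and 49.1 CPM in empty vector replicates 1 to 4, and at 304, 282 and 360 in the scramble libraries. Every empty vector library lay below every scramble library. The means were 53.1 ± 8.67 and 315 ± 40.1 (SD, n = 3 each), 5.94-fold lower with empty vector, and the closest pair of libraries differed by 2.14 on the log2 scale. With RBPJ WT put back, Rbpj reads stood at 126, 125, 149 and 149, between the empty vector and the scramble libraries, and with RBPJ F261A/A284V at 138, 136, 169 and 168. Reads of the introduced and of the cells' own gene were not separated. Within the rescue table, Rbpj rose with RBPJ WT by 1.31 on the log2 scale (SE 0.129, adjusted p = 0.000475, limma). Protein was not measured.

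Of 11586 genes tested, 40 were at least 4-fold higher (0.345%) and 52 at least 4-fold lower (0.449%) with empty vector in every pair of libraries, 92 in all (0.794%). At 2-fold in every pair the counts were 165 higher (1.42%) and 127 lower (1.1%), and at 8-fold 14 (0.121%) and 30 (0.259%). Groups that merely did not overlap were far more common, with 2391 genes higher (20.6%) and 1966 lower (17.0%), and the median difference over all tested genes was 0.06 on the log2 scale. The threshold fell within a continuous range: Satb1 and Rassf2 lay just inside among higher genes, with smallest pair differences of 2.00 and 2.02, and Hemgn and Nrgn just outside at 1.99 and 1.98. Against empty vector replicates 1 and 2 alone, 128 genes were higher and 58 lower, and against replicates 3 and 4 alone 42 and 82. Without scramble replicate 3 the counts were 45 and 63. These sets contain all 92 genes by construction, since fewer pairs can only add genes.

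**Figure D1:**
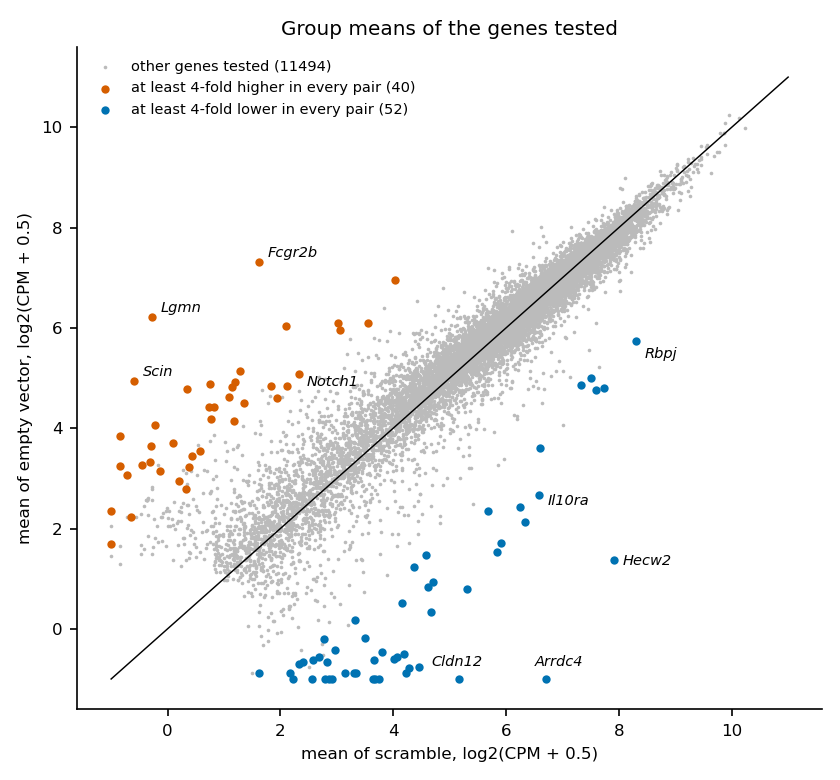
Mean level of each of the 11586 tested genes with empty vector (vertical axis) against scramble (horizontal axis), both as log2(CPM + 0.5); each point is a gene and the line marks equal means. Orange points are the 40 genes at least 4-fold higher and blue points the 52 at least 4-fold lower in every library pair; Rbpj is among the latter at the highest scramble level of them, and Arrdc4 and Cldn12 lie on the floor of the empty vector axis.

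The same rule was applied to the other pairs of groups. RBPJ WT libraries against scramble gave 31 genes higher (0.267%) and 51 lower (0.44%) of 11601 tested, and RBPJ F261A/A284V libraries gave 45 (0.388%) and 50 (0.431%) of 11604. Empty vector against the libraries labelled L3MBTL3 shRNA gave 34 (0.292%) and 64 (0.55%) of 11643. Within an experiment the rule found few or none: 0 genes in L3MBTL3 shRNA against scramble (11450 tested), 0 in F261A/A284V against empty vector (11635), and 0 higher and 9 lower (0.0774%) in RBPJ WT against empty vector (11628). At 2-fold in every pair, these 3 comparisons gave 15 (0.131%), 3 (0.0258%) and 15 (0.129%) genes. The comparisons share libraries, so the counts are given side by side only. Among the 40 higher genes, the median of the group means was 20.9 CPM with empty vector, 15.8 with RBPJ WT, 20.9 with F261A/A284V, 1.07 with scramble and 1.07 with L3MBTL3 shRNA. Among the 52 lower genes the medians were 0.194, 0.232, 0.318, 16.7 and 17.0. The genes were selected for the gap between empty vector and scramble, so the gap between these 2 medians is fixed by the selection. On both sets the RBPJ WT and F261A/A284V medians lay nearer to empty vector than to scramble. The RBPJ WT median on the higher genes was below that of the other rescue groups. The L3MBTL3 shRNA medians lay at those of scramble.

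A set of 4 counted genes besides Rbpj moved back toward scramble when RBPJ WT was put back, by the test within the rescue table (limma on log2(value + 1), Benjamini-Hochberg adjusted p under 0.05; 4 genes rose, 0.0342%, and 25 fell, 0.214%, of 11691 tested, 0.248% in all). They are Lgmn, Gimap4, Pla2g4e and Prkch, all higher with empty vector. Genes without a value of at least 10 in 4 rescue libraries were not tested. Arrdc4, Cldn12, Cd48 and many other lower genes fell below this level and could not be called. The test within the rescue table shares the empty vector libraries with the comparison that selected the counted genes. That selection itself favours a change back toward scramble, so the calls are no independent support for the difference. The 250 bases before the start site of Lgmn, Gimap4 and Pla2g4e are printed because these genes fell with RBPJ WT. Those of Rbpj are printed because it is the targeted gene. Reads of the introduced and of the cells' own Rbpj were not separated, so its rise with RBPJ WT does not describe this promoter. They were read from RefSeq (GRCm38.p6), 5′ to 3′ on the strand of the gene, with 1 start shown per gene and TGGGAA or its reverse complement TTCCCA in capitals.
Lgmn, chr12:102439729-102439978, minus strand: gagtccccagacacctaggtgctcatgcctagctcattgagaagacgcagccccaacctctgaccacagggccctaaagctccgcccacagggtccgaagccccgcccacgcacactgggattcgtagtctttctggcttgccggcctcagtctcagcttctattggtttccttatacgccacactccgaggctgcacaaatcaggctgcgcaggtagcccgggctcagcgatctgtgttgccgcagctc
Gimap4, chr6:48684328-48684577, plus strand: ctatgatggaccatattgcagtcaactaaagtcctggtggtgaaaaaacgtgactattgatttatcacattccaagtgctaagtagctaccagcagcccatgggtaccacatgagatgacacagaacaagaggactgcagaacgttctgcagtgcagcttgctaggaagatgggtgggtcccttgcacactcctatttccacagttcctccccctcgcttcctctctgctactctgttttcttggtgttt
Pla2g4e, chr2:120245336-120245585, minus strand: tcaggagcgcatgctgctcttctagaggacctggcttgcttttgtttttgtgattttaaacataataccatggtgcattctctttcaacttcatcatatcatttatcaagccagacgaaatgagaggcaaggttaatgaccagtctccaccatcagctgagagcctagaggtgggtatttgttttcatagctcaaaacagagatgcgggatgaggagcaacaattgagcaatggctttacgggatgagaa
Rbpj, chr5:53590096-53590345, plus strand: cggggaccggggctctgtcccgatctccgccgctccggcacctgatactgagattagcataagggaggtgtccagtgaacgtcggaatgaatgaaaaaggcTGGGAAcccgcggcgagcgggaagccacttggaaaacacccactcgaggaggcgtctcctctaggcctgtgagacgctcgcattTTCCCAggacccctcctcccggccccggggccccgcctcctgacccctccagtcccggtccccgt
The RBPJ motif GTGGGAA, searched on both strands, was in none of these windows, and its 6-base core TGGGAA, which every GTGGGAA contains, occurred 2 times in that of Rbpj. Of all 32851 promoter windows in the RefSeq table, 5.42% held GTGGGAA and 21.6% TGGGAA. A match describes letters and not a bound site, and binding of RBPJ was not measured in these libraries.

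Lgmn, which encodes legumain, a protease of lysosomes that cuts after asparagine, showed the largest separation among the higher genes. It stood at 69.8, 78.8, 75.8 and 70.9 CPM with empty vector and at 0.489, 0.503 and 0 with scramble, where 6 reads were found in all. The means were 73.7 ± 2.47 and 0.331 ± 0.286 (SD, n = 3 each), 223-fold higher with empty vector. With RBPJ WT the gene stood at 19.9, 20.1, 15.3 and 10.98, below every empty vector library and above every scramble library. The change with RBPJ WT was -2.18 on the log2 scale (SE 0.144, adjusted p = 1.77e-05, limma). With F261A/A284V it stood at 71.6, 71.7, 76.3 and 71.9, within the range of the empty vector libraries. The libraries labelled L3MBTL3 shRNA held 6.07, 5.67 and 2.15, which is above scramble and below all rescue groups.

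Gimap4 belongs to a family of GTPases of lymphocytes, the GTPases of immunity-associated proteins, known for roles in T cell survival. Its level was 15.6, 11.7, 8.87 and 11.04 CPM with empty vector against 1.31, 0 and 1.64 with scramble, with no overlap. The means were 11.2 ± 2.41 and 0.981 ± 0.866 (SD, n = 3 each), 11.4-fold higher with empty vector. RBPJ WT brought it to 0.669, 1.26, 0.236 and 0.510, in the range of the scramble libraries (log2 -3.91, SE 0.296, adjusted p = 4.04e-05, limma). With F261A/A284V it lay between 19.6 and 22.2, above every empty vector library.

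The other two are enzymes of signalling. Pla2g4e encodes a cytosolic phospholipase A2 and stood at 5.38, 6.21, 11.9 and 9.11 CPM with empty vector, against a single read over the 3 scramble libraries. With RBPJ WT it stood at 0.134, 0, 0.236 and 0 (log2 -4.90, SE 0.508, adjusted p = 0.000727, limma), and with F261A/A284V at 1.52, 1.14, 4.50 and 5.12, below every empty vector library. Prkch, the gene of protein kinase C eta, stood at 24.3, 23.8, 14.4 and 14.4 with empty vector and at 1.96, 0.838 and 0.819 with scramble, 14.6-fold apart by the means. RBPJ WT libraries held 5.08, 6.44, 3.77 and 2.55 of Prkch (log2 -2.09, SE 0.360, adjusted p = 0.0395, limma). That call was lost without any 1 of the 8 empty vector and RBPJ WT libraries, with adjusted p between 0.0533 and 0.168.

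**Figure D2:**
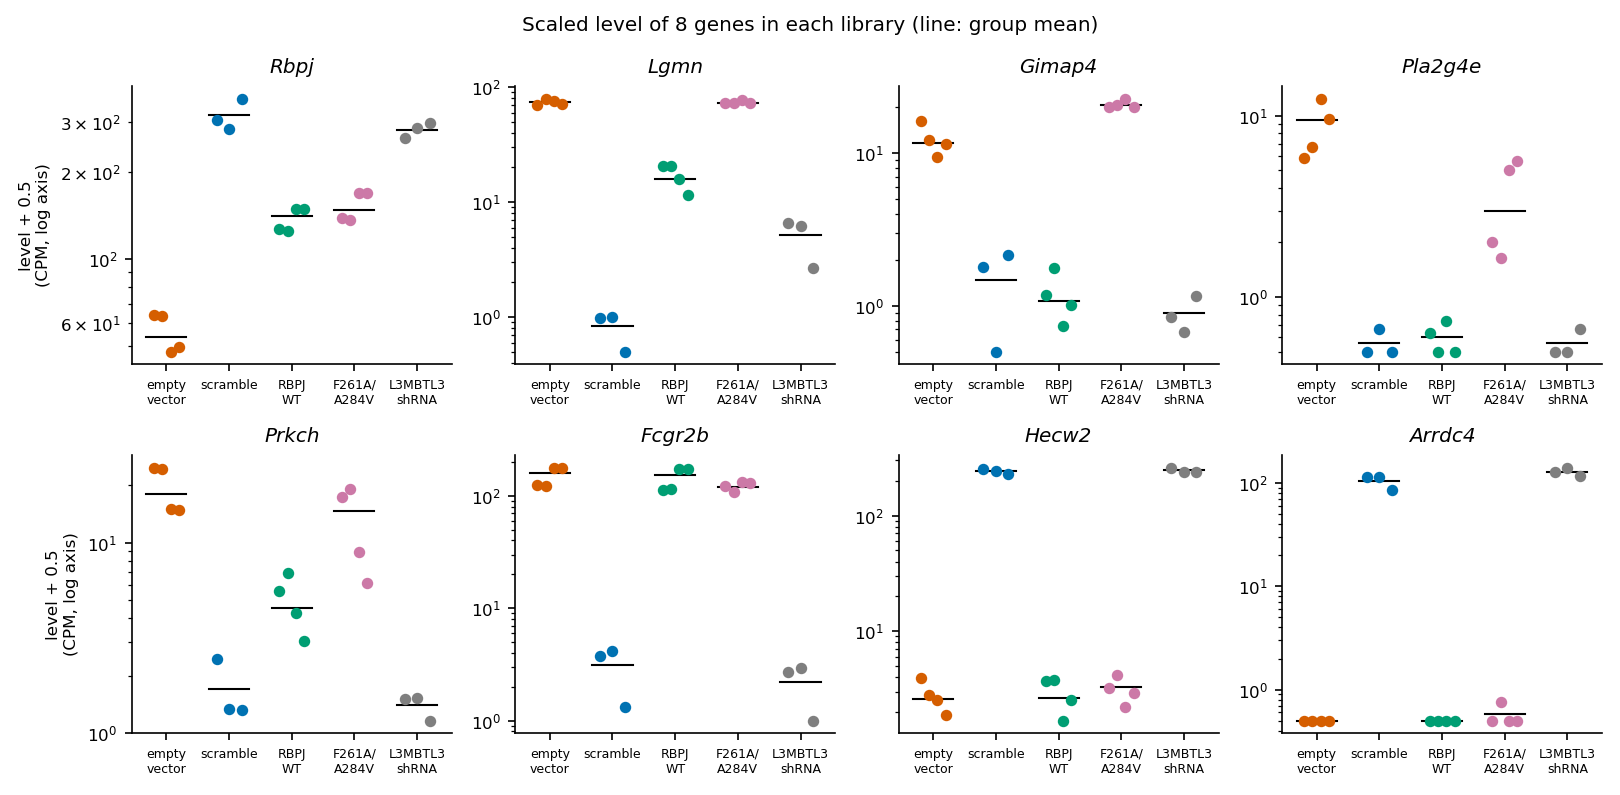
Level of 8 genes in each of the 18 libraries (points; vertical log axis, CPM + 0.5), by group (horizontal axis), with the group mean as a line. Rbpj, Lgmn, Gimap4, Pla2g4e and Prkch lie nearer to scramble with RBPJ WT than with empty vector, while Fcgr2b, Hecw2 and Arrdc4 stay at the empty vector level in all 3 rescue groups.

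Gimap4 was not alone among its relatives. A list of 8 Gimap genes and their neighbours Tmem176a and Tmem176b gave 10 tested genes. Of these, 1 was at least 4-fold higher in every pair (0.345% over all genes tested), 4 at least 2-fold (1.42%) and 7 without overlap (20.6%). None of them was lower by any of these rules (0.449%, 1.1% and 17.0% over all genes tested). Their median difference was 1.64 on the log2 scale, against 0.06 over all tested genes. Gimap6 stood at 25.96, 21.998, 26.6 and 29.8 CPM with empty vector and at 1.14, 1.17 and 5.73 with scramble. Gimap5 stood at 25.3, 24.7, 21.0 and 20.1 against 1.96, 1.68 and 5.12. The third scramble library was the highest of its group for both genes, and for Gimap8 it reached 15.4 against 2.77 and 3.02, inside the empty vector range of 13.8 to 16.7. Without that library the list median was 2.14. With RBPJ WT, Gimap1 stood at 6.82, 8.84, 4.95 and 4.59, below the 15.4 to 44.4 of the scramble libraries as well as the 64.8 to 82.3 with empty vector (log2 -3.55 against empty vector, adjusted p = 1.89e-05, limma). The median of the list relative to scramble was -0.61 with RBPJ WT and 1.56 with F261A/A284V.

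**Figure D3:**
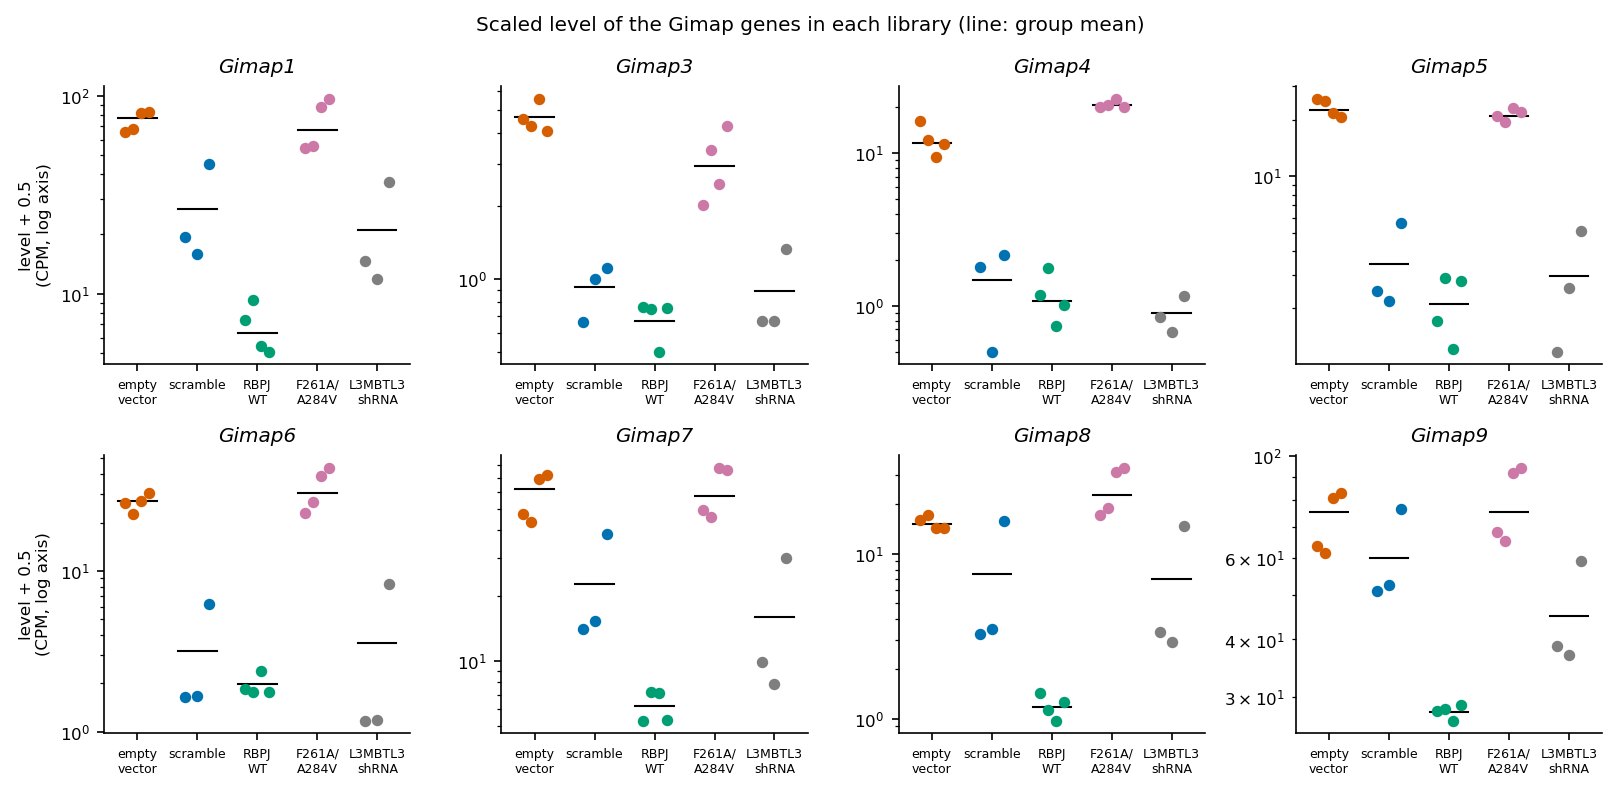
Level of 8 Gimap genes in each of the 18 libraries (points; vertical log axis, CPM + 0.5), by group, with the group mean as a line. Empty vector and F261A/A284V libraries are high and RBPJ WT libraries low for each gene; the third library of scramble and of L3MBTL3 shRNA is the highest of its group in each panel.

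Of 30 listed genes known as Notch targets, 17 were tested. Lgmn and Il2ra were at least 4-fold higher in every pair (0.345% over all genes tested), and Notch1 joined them at 2-fold (1.42%). None was lower at 2-fold, which at 1.1% over all genes is no result about them. Without overlap, 7 were higher and 3 lower, against 20.6% and 17.0% over all genes tested, and the lower genes were near that share. The list was chosen with earlier results known and holds Lgmn, so its median of 0.46 describes these members only. Notch1, the receptor gene and itself a target, stood at 35.4, 35.2, 22.5 and 20.4 CPM with empty vector and at 4.89, 5.53 and 3.07 with scramble. The groups did not overlap, and the means were 26.1 ± 8.05 and 4.50 ± 1.28 (SD, n = 3 each), 5.80-fold apart. With RBPJ WT, Notch1 stood at 14.5, 13.5, 7.55 and 5.10 (log2 -1.54, adjusted p = 0.141, limma; adjusted p = 3.09e-07 with the replicate number as a block).

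Hes1, the classical target that encodes a repressor, stood at 48.7, 45.1, 58.3 and 57.1 CPM with empty vector and at 31.0, 22.8 and 45.5 with scramble. The third scramble library overlapped the empty vector range. With RBPJ WT it stood at 27.8, 29.9, 39.9 and 39.3 (log2 -0.62, adjusted p = 0.937, limma; adjusted p = 3.11e-06 with the block). Gzmb, the granzyme B gene of cytotoxic granules, was 41.2, 40.4, 63.6 and 62.7 with empty vector and 32.6, 30.5 and 31.7 with scramble, without overlap. RBPJ WT brought Gzmb to between 6.37 and 8.16, below every scramble library (log2 -2.73, SE 0.298, adjusted p = 0.00111, limma).

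Several targets that drive growth or T cell development differed little. Myc, a growth regulator, averaged 216 ± 44.4 CPM with empty vector and 188 ± 10.7 with scramble (SD, n = 3 each), with overlap. Tcf7, a factor of early T cells, averaged 229 ± 27.0 against 150 ± 9.36, without overlap. Hes6 and Cdca7 were 1.52-fold and 1.37-fold higher without overlap, and Gata3 and Cd44 were 1.11-fold and 1.35-fold lower without overlap. Cdkn1a and Bcl6 overlapped between the groups.

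Among 34 tested genes of the Notch pathway itself, Rbpj was the only one past 4-fold (0.449% lower and 0.345% higher over all genes tested). Notch1 was the only other one past 2-fold in every pair (1.42% higher and 1.1% lower over all genes). The list median was -0.01, and 6 genes were higher and 12 lower without overlap (20.6% and 17.0% over all genes tested), so the higher genes were near the share over all genes. Notch2, the second receptor gene of T cells, lay between 405 and 417 CPM with empty vector and between 382 and 427 with scramble. Rfng and Lfng encode Fringe enzymes that add sugars to Notch: Rfng was 2.08-fold higher and Lfng 1.44-fold lower with empty vector, both without overlap. Numb, an adaptor that restrains Notch, was 1.51-fold lower without overlap.

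None of 19 tested RBPJ corepressor genes passed 2-fold in every pair, which at 1.42% higher and 1.1% lower over all genes is no result about these genes, and their median was 0.00. L3mbtl3 stood at 132, 122, 112 and 113 CPM with empty vector and at 81.4, 78.3 and 58.6 with scramble. Its means were 117 ± 8.41 and 72.7 ± 12.4 (SD, n = 3 each), 1.61-fold higher with empty vector and without overlap. With RBPJ WT it averaged 98.7 ± 8.89 (log2 -0.25, adjusted p = 0.588, limma; adjusted p = 0.0221 with the block, and 0.0654 with near-identical libraries averaged and the divide as a term). The libraries labelled L3MBTL3 shRNA held 69.1, 64.9 and 63.7, inside the scramble range, so reads of this gene do not separate them from scramble. Spen was 1.53-fold higher with empty vector, without overlap, and fell with RBPJ WT by 0.44 on the log2 scale (adjusted p = 0.00769, limma).

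Receptors and adhesion molecules of T cells were among the counted genes. Il2ra encodes the alpha chain of the interleukin-2 receptor and marks activated and developing T cells. It stood at 12.6, 13.9, 7.35 and 6.62 CPM with empty vector and at 0.163, 0.335 and 0.205 with scramble, 38.7-fold apart by the means (4 reads in scramble). Its neighbour Il15ra, which presents interleukin-15, stood at 9.97, 9.85, 6.08 and 7.73 against 2 reads in the scramble libraries. No other tested gene lies between the pair in the GRCm38 annotation. Both stayed above scramble with RBPJ WT, at 3.07 to 8.46 for Il2ra and 3.54 to 7.71 for Il15ra.

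Satb1, a chromatin organizer of thymocytes, averaged 33.4 ± 11.2 against 4.50 ± 1.41 (SD, n = 3 each). It was the only one of 32 tested T cell identity genes past 4-fold (0.345% higher and 0.449% lower over all genes tested). Cd4, the coreceptor gene, stood at 24.3, 28.3, 10.6 and 11.3 against 2.45, 2.01 and 1.64, past 2-fold in every pair. The median of the identity list was 0.11.

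Il10ra, the ligand-binding chain of the interleukin-10 receptor, went the other way. It stood at 10.4, 11.1, 2.53 and 4.42 CPM with empty vector and at 74.2, 66.0 and 147 with scramble, and at 4.01 to 16.1 with RBPJ WT. Ccr2, a chemokine receptor gene, stood at 19.1, 21.9, 2.79 and 4.14 against 64.4, 58.8 and 48.1, and Cd40lg, the ligand with which T cells help B cells, at 3.15, 3.91, 1.77 and 3.04 against 25.1, 21.95 and 10.04. Both were at least 2-fold lower in every pair. The 2 sides of the divide among the empty vector libraries differed from each other for Cd4, Il10ra and Ccr2, which were each higher in replicates 1 and 2 than in 3 and 4.

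Interferon response genes were mostly higher with empty vector. Of 36 tested, 25 were higher without overlap and 4 lower (20.6% and 17.0% over all genes tested); 7 were at least 2-fold higher in every pair (Mx2, Ifih1, Ifi44, Rtp4, Gbp2, Gbp3 and Gbp5; 1.42% over all genes) and none lower (1.1%). Gbp2, a guanylate-binding protein induced by interferon, stood at 35.8, 38.9, 25.1 and 22.4 CPM against 3.26, 4.52 and 1.43 with scramble. Gbp5, its relative, stood at 10.8, 9.58, 5.57 and 5.80 against 0.653, 0.670 and 0.614. Both passed 4-fold in every pair, which by construction covers each side of the divide. Ifih1, a sensor of double-stranded RNA, stood at 37.9, 33.9, 17.2 and 19.6 against 4.89, 4.36 and 1.43.

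The direction within the interferon list was not uniform. Usp18, which restrains interferon signalling, was 1.71-fold lower without overlap, and Isg20, an RNA-degrading enzyme, 1.39-fold lower. The list median was 0.62 against 0.06 over all genes, 0.89 with empty vector replicates 1 and 2 and 0.68 with replicates 3 and 4. It was 0.52 with RBPJ WT, 0.76 with F261A/A284V and 0.10 with L3MBTL3 shRNA, all relative to scramble, so the 3 rescue groups lay together here.

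Fcgr2b, the inhibitory receptor for immunoglobulin G best known from B cells and myeloid cells, was the second most separated of the higher genes. It stood at 125, 122, 177 and 176 CPM with empty vector and at 3.26, 3.69 and 0.819 with scramble, 61.3-fold apart by the means, 159 ± 30.8 and 2.59 ± 1.55 (SD, n = 3 each). With RBPJ WT it lay between 112 and 173, and with F261A/A284V between 107 and 133. None of 14 B cell markers in the tables reached the testing level, with summed levels of 3.59 to 7.47 with empty vector and 2.45 to 3.07 with scramble, so every empty vector library was above every scramble library, and Pax5 and Cd79b had no read in any of the 7 libraries. The 20 myeloid markers summed to 74.5 to 88.5 with empty vector and 85.8 to 107 with scramble, and Cd14 had no read. Of 5 tested, with a median difference of 1.51 on the log2 scale, 3 were higher and 1 lower without overlap (20.6% and 17.0% over all genes tested). The lower count was near that share. Lyz2 and Itgam were at least 2-fold higher in every pair (1.42% over all genes) and Cd68 at least 2-fold lower (1.1%). The part of other cells in the Fcgr2b difference was not tested.

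The other higher genes of the 15 with the largest smallest-pair difference came from many functions. Scin, which severs actin filaments, stood at 46.6, 48.0, 20.02 and 22.9 CPM against 3 reads in the scramble libraries. With RBPJ WT it stood at 14.7, 19.0, 5.90 and 6.38 (log2 -1.63, adjusted p = 0.591, limma; adjusted p = 3.59e-09 with the block). Grb10, an adaptor of the insulin receptor, moved away from scramble with RBPJ WT: it stood at 27.3, 25.0, 7.09 and 8.56 with empty vector, against 1 read in scramble, and at 73.5, 78.0, 44.6 and 50.03 with RBPJ WT (log2 2.05, adjusted p = 0.487, limma; adjusted p = 4.29e-07 with the block).

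Akap6, an anchor of protein kinase A, Mid2, a ubiquitin ligase of the TRIM family, and Lax1, a membrane adaptor that dampens lymphocyte receptors, shared a pattern. Their means with empty vector were 16.1 ± 12.9, 34.6 ± 11.1 and 12.5 ± 5.89 CPM (SD, n = 3 each), against 0.357, 1.94 and 0.575 with scramble and 4.75, 18.9 and 5.26 with RBPJ WT. Their changes with RBPJ WT were called with the block, at adjusted p = 5.32e-06, 5.32e-06 and 0.000801 (limma), and not in the main fit without it (1.00, 0.861 and 0.803). With near-identical libraries averaged and the divide as a term they were also called, at adjusted p = 6.86e-05, 2.59e-05 and 0.000753 (limma).

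A group of 7 further higher genes stayed well above scramble when RBPJ WT was present. Plekhg3 averaged 65.1 ± 8.16 CPM with empty vector, 3.80 ± 1.87 with scramble and 68.9 ± 8.08 with RBPJ WT (SD, n = 3 each). Ahsg, the gene of the plasma protein fetuin-A, averaged 67.6 ± 5.00, 7.57 ± 3.40 and 72.9 ± 7.15, and Gspt2, a translation termination factor, 27.2 ± 3.53, 0.775 ± 0.755 and 26.8 ± 3.97. Renbp, an enzyme of sugar metabolism, Trf, which encodes transferrin, Kif5a, a kinesin motor, and Ckm, the muscle creatine kinase, were between 14.8-fold and 38.3-fold higher with empty vector than with scramble. None of the 7 was called between RBPJ WT and empty vector, with or without the block.

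**Figure D4:**
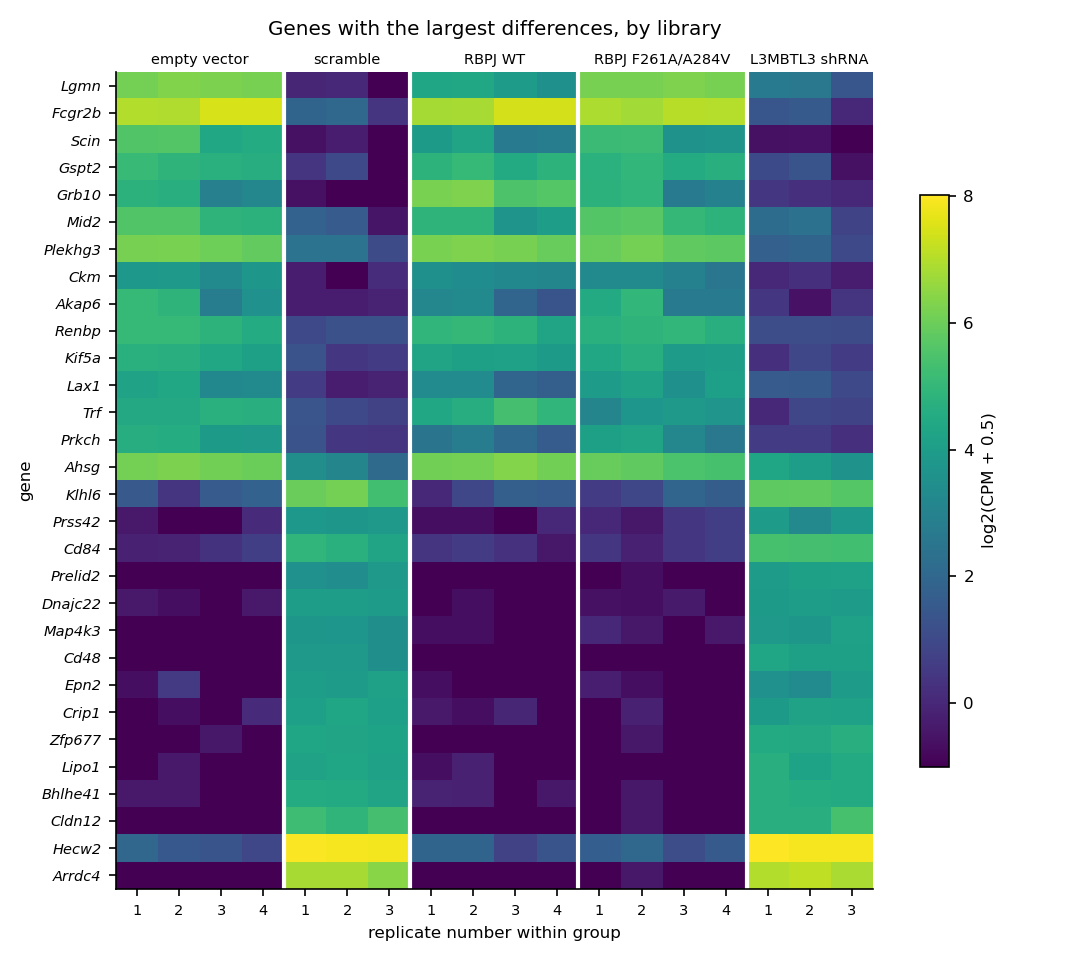
Level of the 30 genes with the largest smallest-pair differences (15 in each direction, vertical axis) in each of the 18 libraries (horizontal axis, by group and replicate number), with colour giving log2(CPM + 0.5). The scramble and L3MBTL3 shRNA libraries differ from the 12 rescue libraries in nearly every row. Lgmn, Scin, Akap6, Mid2, Lax1 and Prkch are among the rows with a lower mean with RBPJ WT than with empty vector.

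The lower genes were in many cases close to or at 0 with empty vector. Arrdc4, an arrestin-domain adaptor that promotes ubiquitination, had no read in any empty vector library and stood at 113, 114 and 85.6 CPM with scramble, at least 175-fold lower with empty vector (floor of 3 reads per library). Cldn12, a claudin, had no read against 37.0, 29.2 and 40.3, at least 59.5-fold lower. Hecw2, a ubiquitin ligase of the HECT type, was detected throughout: it stood at 3.41, 2.29, 2.03 and 1.38 with empty vector and at 252, 240 and 230 with scramble, 115-fold apart. With RBPJ WT these 3 genes stayed at 0, 0 and 2.16 ± 1.04 CPM on average, and in the libraries labelled L3MBTL3 shRNA at 129 ± 11.6, 30.6 ± 9.79 and 245 ± 12.4 (SD, n = 3 each).

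Cd48 and Cd84, members of the SLAM family of receptors through which lymphocytes contact each other, lie close together on chromosome 1. Cd48 had no read with empty vector and stood at 13.7, 14.1 and 10.9 CPM with scramble, at least 21.6-fold lower. Cd84 stood at 0.393, 0.405, 0.760 and 1.10 against 30.0, 26.1 and 18.8, 33.1-fold lower. With RBPJ WT, Cd48 had no read and Cd84 lay between 0.255 and 1.01. Both therefore stayed low in the rescue libraries, and in L3MBTL3 shRNA libraries they averaged 17.8 ± 1.37 and 40.4 ± 1.38 (SD, n = 3 each).

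Regulators of transcription and signalling made up part of the remainder. Bhlhe41, a repressor of the basic helix-loop-helix type, stood at 22.7, 22.6 and 18.8 CPM with scramble and had 4 reads over the empty vector libraries. Of 282 tested zinc finger genes, Zfp551, Zfp605 and Zfp677 were at least 4-fold lower (0.449% over all genes tested) and none 4-fold higher (0.345%). At these shares a list of this size holds few such genes or none. The list median was 0.04. Zfp551 had no read with empty vector, Zfp677 had 1, and Zfp605 stood at 0.760 to 1.21 against 13.3 to 19.6. Map4k3, a kinase of T cell receptor and nutrient signalling, had no read against 13.2, 12.9 and 10.9, at least 20.7-fold lower. Klhl6, a Kelch-like adaptor of lymphocytes, averaged 2.39 ± 0.737 against 56.4 ± 15.7 (SD, n = 3 each).

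The rest of the 15 most separated lower genes were Prelid2, a relative of mitochondrial lipid carriers, with no read with empty vector, Lipo1, a lipase-like gene, Dnajc22, a cochaperone, Crip1, a small LIM protein, Prss42, a serine protease, and Epn2, an endocytic adaptor. Their scramble means lay between 11.9 and 18.3 CPM, and their empty vector totals between 0 and 8 reads. None was brought back with RBPJ WT, where their means were at most 0.223 CPM.

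Most other gene groups showed small medians whose sign depended on which empty vector libraries were used. Immediate early and stress genes had a median of -0.53 with empty vector replicates 1 and 2 and 0.13 with replicates 3 and 4, ribosomal protein genes -0.33 and 0.36, glycolysis and hypoxia genes -0.35 and 0.04, and replication histones -0.05 and 0.52. No member of the cell cycle (37 tested), p53 target (15), apoptosis (20), MHC class I (22) or ribosomal protein (80) lists passed 2-fold in every pair; with 1.42% higher and 1.1% lower over all genes, lists of this size hold few such genes or none. Car9, a carbonic anhydrase induced by low oxygen, was the only one of 32 glycolysis and hypoxia genes to do so, at 43.9, 40.6, 51.2 and 45.8 CPM with empty vector against 165, 153 and 209.

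**Figure D5:**
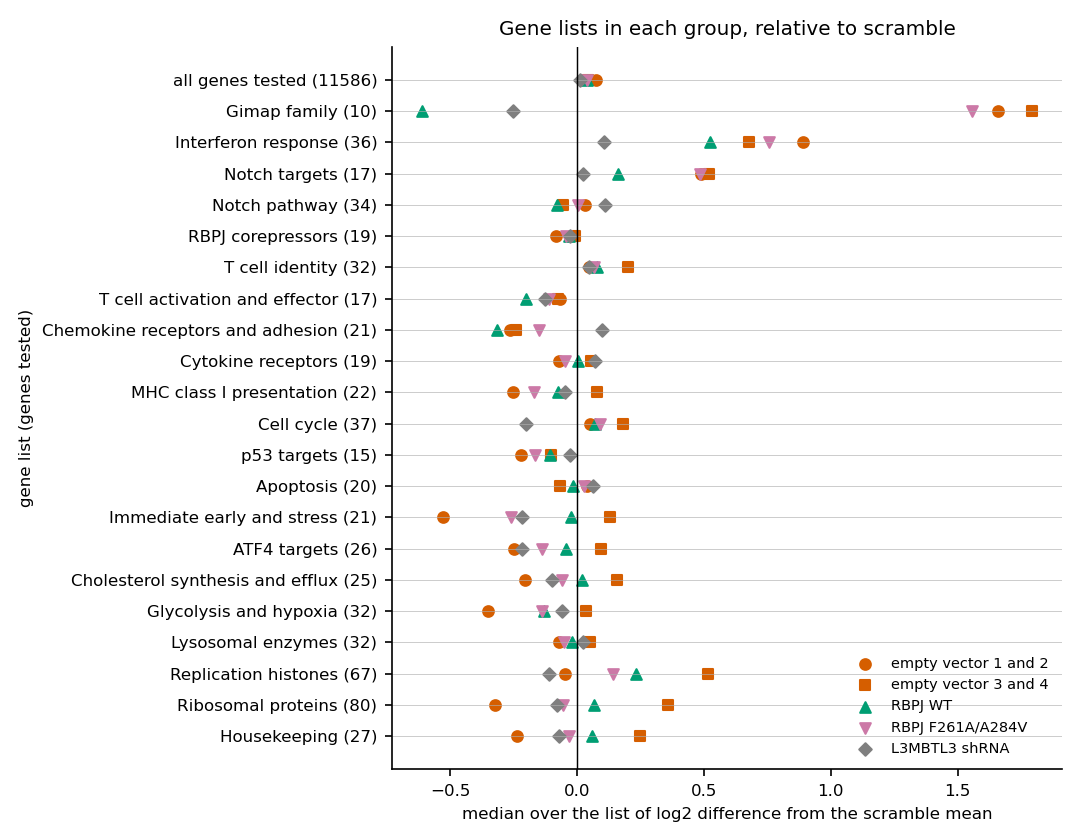
Median log2 difference from the scramble mean over the tested genes of each list (horizontal axis), by list (vertical axis, number of genes tested in brackets), for empty vector replicates 1 and 2, empty vector replicates 3 and 4, RBPJ WT, F261A/A284V and L3MBTL3 shRNA. The Gimap list is high with empty vector and F261A/A284V (1.56 to 1.79) and at -0.61 with RBPJ WT, and the interferon list lies between 0.52 and 0.89 in all rescue groups.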

How the data were processed

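RNA-seq libraries were prepared from ribosome-depleted total RNA with a stranded kit, per the labels' protocols. TopHat2 2.1.1, DESeq2 1.24.0 and the build mm9 are named in the submitters' processing notes; the read counter, annotation, strand handling and removal of duplicates have no mention in the sources used here. The authors deposited 1 table per experiment, whose signal values are gene counts divided by a size factor per library: 100% of values came out as whole reads within 0.1 read. Without known strand handling, reads of overlapping and antisense genes cannot be told apart; near-identical genes are likewise uncertain, and 46 tested genes held the same values as another.

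Each library was scaled to the same sum over 24391 genes. Differences were taken on log2(CPM + 0.5) for genes at 2 CPM or more in at least 3 of 7 libraries. RBPJ WT was compared with empty vector in limma 3.58.1 (limma-trend, 2-sided, log2(value + 1), R 4.3.3), over 12 libraries and 11691 genes with a value of at least 10 in 4 libraries, with Benjamini-Hochberg adjustment; edgeR 4.0.16 and DESeq2 1.42.0 on recovered reads were alternatives. These log2 scales understate changes of low genes. The scripts were tested on simulated data. The labels do not say that replicates were separate cultures, and a p-value here reflects the spread between libraries, possibly technical, and no more. The 12-library fit counts near-identical libraries separately.

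In the rescue table, deviations from group means correlated at 0.55 to 0.81 for libraries sharing a number, but those of other numbers on the same side of the divide at 0.56 to 0.83 and across it at -0.76 to -0.49; the blocked value is given where it changes a call.

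Named genes were Rbpj and L3mbtl3; the 15 per direction with the largest smallest-pair difference and a mean of at least 10 CPM, without predicted genes and short RNAs; counted list members; counted genes called back toward scramble with RBPJ WT; and Notch targets with a mean of at least 10. Others named with values were chosen after these were seen. Some genes that meet these rules are not reported here. Members and lists were chosen with earlier results of these data known. Of the 5 genes called back, Prkch has no promoter shown, and Rbpj is among them with reads of its introduced form included. Chromosomes and gene order came from GRCm38 by symbol (99.6% of tested genes matched).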

Additional observations from a re-analysis of the deposited data

How the results depend on the processing

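The count of genes at least 4-fold apart in every pair (92; 40 higher, 52 lower) was 51 (18 and 33) with a pseudocount of 2 CPM, 59 with a filter of 10 CPM (32 lower), 186 with empty vector replicates 1 and 2 only (128 higher), 292 (165 and 127) at 2-fold and 44 (14 and 30) at 8-fold; with empty vector replicates 3 and 4 only, 82 were lower. Leaving out 1 library gave 96 to 108 genes. Under median-of-ratios, TMM and quantile scaling, 91, 91 and 88 of the 92 were still counted, and 73 when all 6 knockdown libraries served as the comparison. The share of higher genes among those counted was 43.5%, and 68.8% with empty vector replicates 1 and 2 only. No scaling moved the median of all genes by 0.1 or more.

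For RBPJ WT against empty vector, 29 genes were called (4 rose, 25 fell). With a replicate block 116 rose and 145 fell, and all 29 were among them. With near-identical libraries averaged, 78 rose and 100 fell with the divide as a term, and 2 and 11 without it. With DESeq2 21 rose and 39 fell, and with edgeR 4 and 24. After quantile scaling 9 rose. In replicates 1 and 2 alone 46 rose and 71 fell, and in replicates 3 and 4 alone 67 and 80. Leaving out 1 library gave 2 to 3 genes that rose and 15 to 19 that fell. Among the named genes reported here, the block added calls for Scin, Grb10, Mid2, Akap6, Lax1, Gbp5, Notch1, Hes1 and L3mbtl3 and changed no other call. With near-identical libraries averaged and the divide as a term, Gbp5 (adjusted p = 0.0632, limma) and L3mbtl3 (0.0654) were not called and the other 7 were. Adam12, which is outside the rules for named genes, was called with the block and with the divide as a term. The cause of these differences was not tested. No named gene that was called reversed its direction under the alternatives run. List medians near 0 did change sign with the empty vector libraries used, as for immediate early and stress genes (-0.16; 0.13 with replicates 3 and 4 only) and ribosomal proteins (0.12; -0.33 with replicates 1 and 2 only).

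At these depths 1 read was worth 0.131 to 0.276 CPM. The order of genes by smallest-pair difference had no floor of reads and includes genes with 3 reads or fewer in a library, such as Lgmn, Scin, Grb10 and Arrdc4. For such genes the size of the difference depends on the 0.5 CPM added before the log, and their place in the order is uncertain.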

Other observations

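Tested genes were matched to chromosomes by symbol, a summary chosen after the values were seen. Genes of chromosome 12 had a median difference of -0.18 on the log2 scale between empty vector and scramble (405 genes; -0.26 to -0.12 over the 12 library pairs), and 27.7% of them lay above 0. The same median was -0.19 for RBPJ WT and -0.17 for F261A/A284V against scramble, and -0.00 for L3MBTL3 shRNA against scramble. Medians of the other chromosomes ranged from -0.06 on chromosome X to 0.17 on chromosome 8. Against this median, chromosome 12 held 5 of the 40 higher genes (Lgmn, Scin, Plekhg3, Akap6 and Prkch), 1.23% of its tested genes against 0.345% over all. It also held 3 of the 52 lower ones, 0.741% against 0.449% over all. Of the 5 higher genes, Lgmn, Scin, Akap6 and Prkch had lower mean levels with RBPJ WT than with empty vector. Mid2 and Lax1, on other chromosomes, did so as well.

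Chromosome X held 5 higher genes, 1.29% of its 388 tested genes against 0.345% over all, with Gspt2, Renbp and Mid2 among them. It held 1 lower gene, 0.258% against 0.449% over all. Counted genes lay next to each other, with at most 1 tested gene between, in 5 cases. How many such cases a random set of this size would hold was not tested. Il2ra and Il15ra were both higher, as were Ckm and A930016O22Rik, and Cd48 and Cd84 were both lower. The other two pairs went in opposite directions: Marveld1 was higher and Crtac1 lower, and Repin1 higher and Atp6v0e2 lower.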
